A study of Mus musculus with 42 samples.

Results

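The genes described here are those of the cytosolic ribosomal proteins, the protein part of the ribosome that translates messages from the nucleus. They were chosen by name, as every row starting with Rpl or Rps and a number together with Rplp0, Rplp1, Rplp2 and Rpsa, without pseudogene names and without the kinases whose names start with Rps6k. The rule found 84 of the 19232 gene names in the series. Of these, 77 are core ribosomal proteins, 46 of the large and 31 of the small subunit, and 7 are paralogues or genes that only carry the name (Rpl3l, Rpl7l1, Rpl22l1, Rpl36al, Rps27l, Rps27rt and Rps19bp1). In each of the 12 tables of the series 83 members had a mean normalized count of at least 10 and were tested. The remaining member, Rpl3l, was listed only in the 2 tables of Smad4 knockout stromal cells, where its level in control cells was 0.0612 to 0.358 CPM (reads of a gene scaled to the depth of the library).

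Ribosomal proteins bind ribosomal RNA and assemble in the nucleolus into a large and a small subunit. Their genes are transcribed at high rates in most cells, and their messages begin with a tract of pyrimidines through which the mTORC1 kinase controls their translation as a group. The P stalk of the large subunit, built from Rplp0, Rplp1 and Rplp2, recruits the factors that drive elongation, and Rpsa of the small subunit also carries the name of a laminin receptor. Rpl5 and Rpl11 can bind Mdm2, the ubiquitin ligase of p53, when assembly of ribosomes is disturbed, Rps6 is the classic substrate of the S6 kinases, and Rps19 is a gene mutated in Diamond-Blackfan anemia. In the colon, goblet cells translate and secrete large amounts of mucin, while stromal cells secrete collagen and niche factors.

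The study asked what happens to Gli1+ stromal cells that can no longer transmit BMP signals, and to the goblet cells beside them, and what interleukins do to the epithelium. RNA was sequenced from Muc2-mCherry+ cells, a label for goblet cells, and from Gli1-tdTomato+ stromal cells, each taken by sorting from both ends of the colon, proximal and distal, with 2 libraries per group. The mice carried the tamoxifen-dependent Gli1-CreERT2 driver in every group, controls included, received tamoxifen for 5 days (given as a subcutaneous injection in the labels and as an intraperitoneal one in the study's methods) and were used on day 30, and were wild type (GWTM2 and GWTT), homozygous for floxed Smad4 (GS4M2 and GS4T) or homozygous for floxed Alk3, the gene listed as Bmpr1a (GA3M2 and GA3T). The recombination was therefore in Gli1+ cells and not in the Muc2-mCherry+ cells, and whether mice were pooled for a library is not stated in the labels. Wild-type colonic organoids received 10 nM of IL-1α with IL-1β, 10 nM of IL-17A, or neither, for 12 or 72 h, with 3 libraries per group. P-values measured the spread between these libraries, which may be technical.

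Sequence around the transcription start is shown for some of the members that the results below turn on or contrast, among those with a RefSeq row. The letters CTTTC, a short form of the C and pyrimidine tract, were searched within 50 bases on either side of each RefSeq gene start. They were found on the sense strand in 35 of 67 promoter rows of core members, 52.2%, against 12.8% of all 32851 promoter rows, and on the antisense strand in 8.96% against 12.1%. RefSeq rows (GRCm38.p6) were matched for 64 of the 84 members. A match describes these letters and is not a start site, and no match says only that they are not in the window. The windows of 30 bases read 5′ to 3′ along the gene, with the CTTTC nearest the gene start in capitals. Those of Rpl35 and Rps27 hold a further match in lower case.
Rpl34, chr3:130730384-130730413, minus strand: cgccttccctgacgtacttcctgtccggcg
Rpl36al, chr12:69184018-69184047, minus strand: tctgttcgtccCTTTCctgttcggcgcgtg
Rplp2, chr7:141447641-141447670, plus strand: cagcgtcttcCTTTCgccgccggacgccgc
Rpsa, chr9:120127778-120127807, plus strand: gccgcccgtcCTTTCgcgctacccggggac
Rpl35, chr2:39005110-39005139, minus strand: gccctttcctCTTTCtctcgaaccaggctg
Rps27, chr3:90213628-90213657, minus strand: gctttcgctcCTTTCcggcggtgacgacct
Rps27rt, chr9:114982720-114982749, minus strand: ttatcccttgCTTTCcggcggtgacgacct
Rpl7l1, chr17:46782642-46782671, minus strand: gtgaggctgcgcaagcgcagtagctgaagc
Rps27rt, a processed copy of Rps27, shared with it every base from the capitals on. Over the coding sequence of 255 bases the pair had 0 differing bases, and 91.1% of the 50-base windows of Rps27rt also occurred in another gene. The authors kept uniquely mapped reads, so reads of the shared sequence may be missing from these 2 rows, and their levels are uncertain. The windows around the starts of Rpl34 and of Rpl7l1, a paralogue that acts in ribosome assembly, held no match.

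The 40 distinct libraries behind 42 sample names held 14222902 to 23686940 reads on genes, so counting error was small for nearly all members. The controls of each segment were shared by the 2 knockout comparisons. Control_12h replicates 2 and 4 held the same reads as Control_72h replicates 1 and 4, so the 12 and 72 h comparisons share controls too. The hour at which these shared controls were taken is therefore not known. Time in culture thus cannot be told apart from the cytokine in the organoid comparisons that use them. The pairs IL1_12h 3 and 4, IL17A_12h 3 and 4, and Control_72h 2 and 4 differed by only 3.03 to 3.32 times the sampling noise, against 26.2 to 212 times for other pairs within an organoid group. Of the targeted genes, Smad4 fell in Gli1-tdTomato+ cells from 1604 and 1673 to 705 and 835 normalized counts in the proximal colon (log2FC -1.09, adjusted p = 0.0101) and from 1781 and 1703 to 680 and 1171 in the distal colon (-0.96, adjusted p = 0.0424). Bmpr1a was at 2960 and 3220 against 2233 and 1842 in the proximal GA3T cells (-0.61, adjusted p = 0.12) and at 3359 and 3485 against 2203 and 2043 in the distal cells (-0.69, adjusted p = 0.101), lower in each knockout library but not past the threshold.

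In control cells the ribosomal protein genes were higher in goblet cells and organoids than in stromal cells. Levels are given in CPM, over reads on named genes, and were set side by side across tables that were normalized separately, so they carry no test. The median member was 0.58 higher on the log2 scale in GWTM2 than in GWTT libraries, against 0.07 for all genes. In 67 of 83 members all 4 goblet control libraries lay above all 4 stromal ones, a pattern found in 38.7% of genes, and 0 members lay below, against 35.4%. Organoids lay above stromal cells in 70 members (40.9% of genes) and below in 0 (36.0%), with a median difference of 0.69. Against goblet cells, organoids lay above in 21 members (24.4% of genes) and below in 2 (18.0%), with a median difference of 0.14 and 60 members overlapping. In sorted bulk samples, fewer cells of a type and less RNA per cell cannot be told apart.

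**Figure D1:**
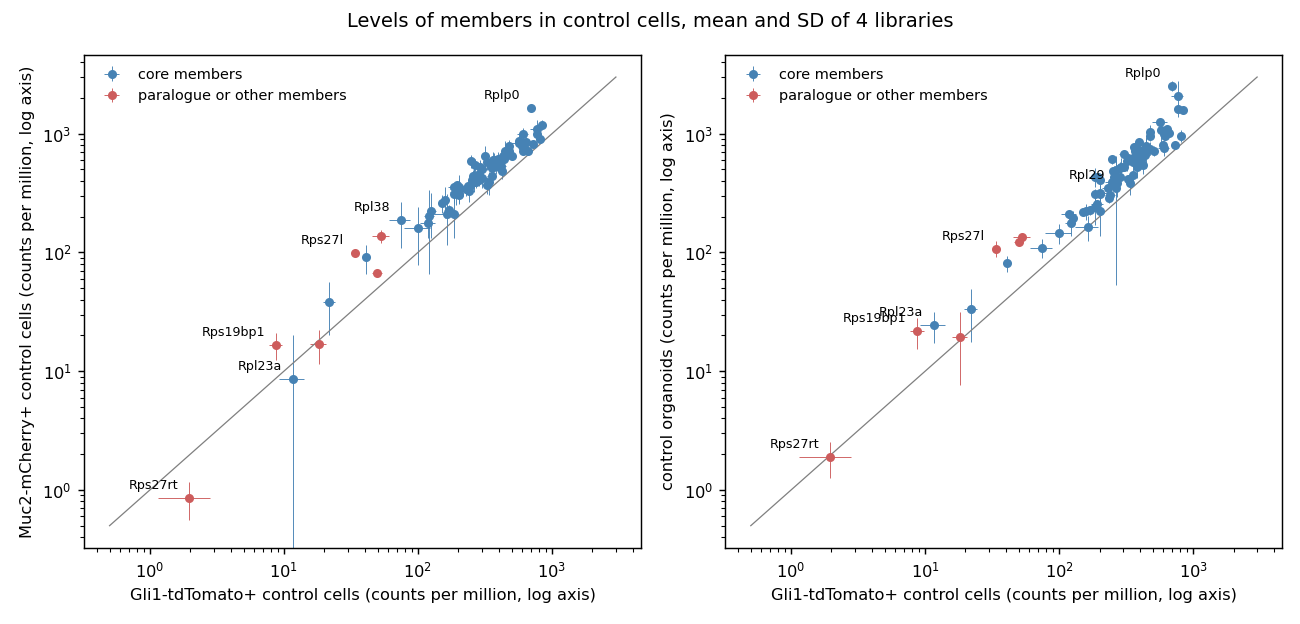
Level of each of the 83 members in control cells, in CPM on log axes, as mean and SD of 4 libraries. The left panel sets Muc2-mCherry+ cells (vertical) against Gli1-tdTomato+ cells (horizontal), the right panel organoids against the same stromal cells, and the line marks equal levels. Most members sit above the line in both panels, with Rplp0 at the top, Rps27l far above it and Rps27rt the lowest.

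Rplp0 of the P stalk had one of the largest differences between goblet and stromal cells (1.24). It was at 1557 to 1780 CPM in goblet cells, 662 to 738 CPM in stromal cells and 2207 to 2784 CPM in organoids, and these ranges did not overlap. Per kilobase of transcript, the highest core members in goblet cells were Rplp1 (1978 CPM per kb), Rplp0 (1941), Rpl13a (1711), Rps12 (1453) and Rpl10 (1252). In stromal cells the order was Rpl13a (1287), Rplp1 (1209), Rpl10 (1117), Rpl13 (933) and Rps12 (908). In organoids it was Rplp0 (2967), Rpl13a (2202), Rps2 (2044), Rpl3 (1542) and Rplp1 (1515). The lowest core members per kilobase were Rpl23a and Rpl35 in each of the 3 cell types, with Rpl22 beside them in goblet cells (111) and organoids (111) and Rps20 in stromal cells (69.3). Rpl23a was at 15.5, 20.8 and 43.5 CPM per kb and Rpl35 at 40.3, 23.1 and 35.0 in goblet, stromal and organoid cells. Of the windows of 50 bases in these genes, 85.7% for Rpl23a and 95.1% for Rpl35 occur elsewhere, and the authors kept uniquely mapped reads, so these 2 levels are uncertain and may be understated.

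Of the paralogues, 2 had the largest differences between goblet and stromal cells. Rps27l, a paralogue of Rps27 that p53 can induce, was at 94.4 to 104 CPM in goblet cells and at 31.4 to 35.7 CPM in stromal cells, a log2 difference of 1.53, against 0.82 for Rps27. Per 100 reads of Rps27 there were 17.1 to 17.5 reads of Rps27l in proximal GWTT cells, 23.0 to 23.1 in proximal and 32.1 to 40.9 in distal GWTM2 cells, and 40.5 to 65.0 in organoid controls. Rpl36al, a copy of Rpl36a, followed with 121 to 161 against 44.5 to 61.9 CPM (1.35), against 0.56 for Rpl36a. Rpl7l1 was close to its parent, at 0.42 against 0.59 for Rpl7. The opposite order was seen for Rps27rt (-0.67), Rpl23a (-0.38) and Rpl22l1 (-0.10), a paralogue of Rpl22, which was itself at 0.41.

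The knockout comparisons began with goblet cells beside Alk3-deficient stroma. In distal GA3M2 cells the median member was 0.42 higher than in GWTM2 cells on the log2 scale, and 79 of 83 members had a value above 0, against 50.1% of all genes. In proximal GA3M2 cells the median was 0.53, with 76 members above 0 against 49.8%. The members together took 5.23% of reads in both distal GA3M2 libraries against 3.71 to 3.76% in controls, and 5.09 to 7.66% against 4.22 to 4.47% in the proximal colon.

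**Figure D2:**
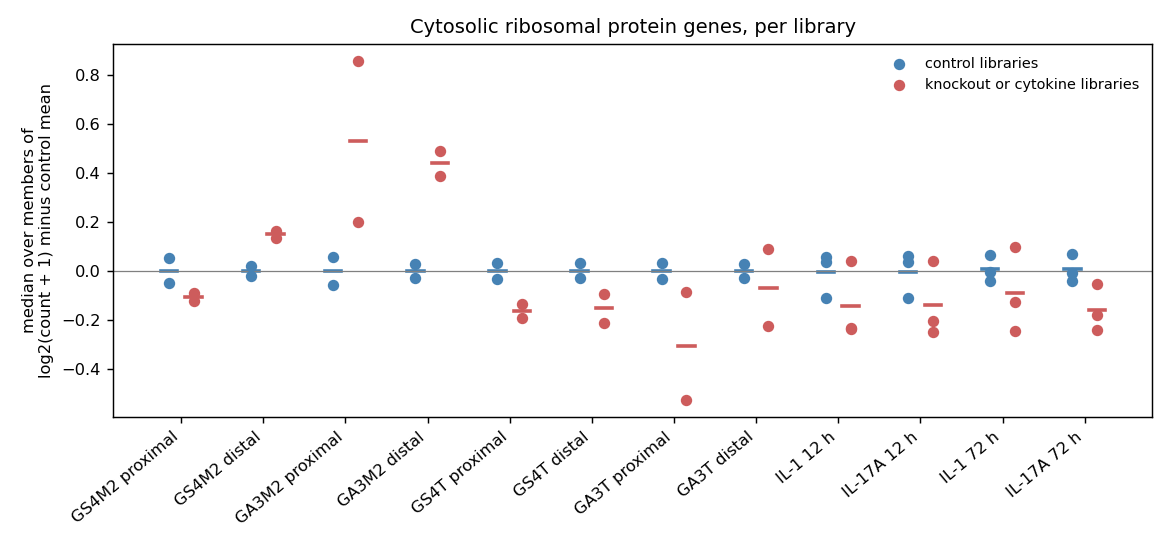
Median over the 83 members of each library's log2(normalized count + 1) minus the mean of the controls, for all 12 comparisons, with a dot per library and a bar for each group mean. Both GA3M2 groups lie above their controls at 0.20 and 0.86 (proximal) and 0.49 and 0.39 (distal), while the organoid groups straddle or lie just below 0.

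No single member passed the test in either segment. limma with an empirical Bayes trend called 0 of 83 members at an adjusted p under 0.05 in both, where it called 0.0899% of all genes in the proximal colon and 0% in the distal. With an unadjusted p under 0.05 there were 45 members higher in the distal colon, against 6.29% of genes, and 0 lower, against 5.46%. In the proximal colon 12 were higher (7.37% of genes) and 0 lower (7.91%). DESeq2 on the recovered reads called 19 members in the distal and 3 in the proximal colon, all higher, and edgeR called 0 in both. The share of all genes that DESeq2 called is not given, so its counts alone do not set the members apart. The 2 groups did not overlap, with the knockout higher, in 70 members in the distal colon (22.1% of genes) and in 53 in the proximal colon (26.0%).

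Members of each subunit had similar values. The median was 0.42 for the large and 0.43 for the small subunit in the distal colon, where 44 of 46 and 31 of 31 core members were above 0. The proximal medians were 0.51 and 0.54. The 6 tested paralogues and other rows had a median of 0.26 in both segments, with 4 of 6 above 0.

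In the P stalk, Rplp0 was at 28897 and 27742 normalized counts (reads divided by a size factor of the library) in the distal controls and at 41491 and 40290 in GA3M2 (log2FC 0.53, SE 0.17, adjusted p = 0.375). In the proximal colon it was at 32252 and 28208 against 42255 and 65697 (0.80, SE 0.33, adjusted p = 0.329). Both knockout libraries were above both controls in each segment, but the second proximal GA3M2 library stood far above the first. Rplp1 and Rplp2 were above the controls in every GA3M2 library, with distal log2FC of 0.28 and 0.33 and proximal log2FC of 0.51 and 0.51.

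The classic members showed the same spread. Rpsa was at 16995 and 17056 against 25117 and 23792 in distal cells (0.52, adjusted p = 0.348) and at 18647 and 17697 against 25641 and 39379 in the proximal colon (0.81, adjusted p = 0.295). Rps6 was at 8110 and 8824 against 12305 and 12200 in the distal colon (0.53, adjusted p = 0.328). For Rps19 the distal values were 6873 and 5484 against 9425 and 9486 (0.62, adjusted p = 0.326). In each of these the groups were apart. Rpl5 and Rpl11 had distal log2FC of 0.51 and 0.50 and proximal log2FC of 0.50 and 0.49, again with every knockout library above the controls.

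The largest distal values belonged to Rpl23a (1.75), Rps27rt (1.20) and Rps28 (0.69), a small subunit protein. Rpl23a rested on a single low control, at 122 and 20.8 against 208 and 144, and its row shares most of its sequence with other genes. Rps28 was at 2355 and 1757 against 3339 and 3241 (adjusted p = 0.322). The lowest distal values were those of Rps27l, at 1641 and 1800 against 1543 and 1190 (-0.34), Rpl39 (-0.22) and Rpl15 (-0.05). Rps27l thus lay below the controls in both knockout libraries while its parent Rps27, at 4014 and 5608 against 4870 and 4893, overlapped them.

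In the proximal colon the largest values were those of Rps27rt, at 23.8 and 13.7 against 33.2 and 56.3 (1.21), Rps19, at 7857 and 5987 against 10237 and 17467 (0.96), and Rps2, at 21204 and 16807 against 30258 and 43999 (0.95, adjusted p = 0.26). The lowest adjusted p of any member was that of Rps19bp1, a protein that binds Rps19, at 318 and 282 against 471 and 569 (0.79, adjusted p = 0.224). Rpl22l1 (433 and 307 against 223 and 321), Rpl39 and Rpl38 had the lowest log2FC, -0.44, -0.38 and -0.29, and their groups overlapped.

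How far the proximal result went depended on the library. The median was 0.86 without GA3M2 replicate 1 and 0.20 without replicate 2. In the distal colon the median was 0.39 to 0.49 without any 1 library. GA3M2 libraries also differed in cell markers: the 8 goblet markers summed to 10023 to 13564 CPM against 30905 to 34293 in proximal controls and to 15258 to 24444 against 35908 to 63130 in distal controls. Muc2 itself fell from a mean of 201895 to 16398 normalized counts in the proximal colon (log2FC -3.63, adjusted p = 0.0464). Macrophage markers, with 7 of 8 listed, summed to 28.5 to 41.1 CPM against 6.10 to 6.55, and 6 of 8 to 30.9 to 38.1 against 4.38 to 7.54 in the distal colon. Lyz2 was at 0 in both proximal controls. The part of these markers in the ribosomal protein values was not tested.

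Goblet cells beside Smad4-deficient stroma gave a smaller and less uniform picture, and it ran in opposite directions in the 2 segments. In proximal GS4M2 cells the median member was at -0.11, with 22 of 83 above 0 against 49.7% of genes, and in distal cells it was at 0.15, with 66 above 0 against 50.3%. limma called 0 members in both, where it called 0.325% of genes in the proximal colon and 0% in the distal. At an unadjusted p under 0.05, 2 members were higher and 12 lower in the proximal colon (7.85 and 8.82% of genes), and 5 were higher and 0 lower in the distal colon (5.11 and 5.51%). DESeq2 called 6 members in the proximal colon, all lower, and 0 in the distal colon, with no share of all genes given. In both segments edgeR called 0. Knockout libraries lay below both controls in 38 proximal members (25.2% of genes) and above both in 48 distal members (23.1%). In the proximal table the headings given with the published data swap the names of the 2 groups. The deposited names were kept because the GWTM2 libraries hold the same reads as in the GA3M2 table, and with the other headings the sign of each proximal GS4M2 value would turn.

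Among the large subunit genes, 3 short ones had the lowest proximal values. Rpl35 was at 552 and 989 against 326 and 296 (-1.25, SE 0.27, adjusted p = 0.124), Rpl39 at 3330 and 5491 against 1980 and 1921 (-1.13, SE 0.23, adjusted p = 0.107) and Rpl34 at 5408 and 7226 against 5330 and 1712 (-1.05, adjusted p = 0.351). The knockout libraries lay below the controls in all 3, although for Rpl34 only the second did so clearly. Rps27 of the small subunit was at 6996 and 7710 against 4966 and 4370 (-0.66, adjusted p = 0.0891). In the P stalk the log2FC was 0.13 for Rplp0 and -0.16 for Rplp1 and Rplp2, and Rpsa was at 0.05 and Rps6 at -0.17. Both knockout libraries lay below both controls for Rplp1, Rplp2 and Rps6, and above them for Rplp0 and Rpsa.

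At the other end stood Rpl23a (0.65), Rps2 (0.38) and Rpl7l1 (0.30). Rps2 was at 19915 and 15898 against 23172 and 23242 in the proximal colon and at 23832 and 16814 against 29108 and 30798 in the distal colon (0.58, adjusted p = 0.46). Rpl7l1 was at 1182 and 1030 against 1419 and 1305 and, in the distal colon, at 1282 and 1191 against 1691 and 1735 (0.47, adjusted p = 0.381). Both were above the controls in every GS4M2 library.

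Some of the spread followed single libraries. GWTM2 replicate 2 was low in Rpl23a and high in Rpl35 and Rpl39 in both segments, with distal values of 21.5 against 127, 840 against 284 and 4893 against 1942 in replicate 1. GS4M2 replicate 2 was low in Rpl34 in both segments, at 1712 and 1865 against 5330 and 5322 in replicate 1. These shifts within a group were larger than most differences between groups. Without any 1 library the median ran from -0.13 to -0.04 in the proximal colon and from 0.12 to 0.17 in the distal. Unlike GA3M2 cells, GS4M2 cells kept goblet markers at 36561 to 40017 CPM in the proximal and 42153 to 49506 CPM in the distal colon.

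In the Gli1-tdTomato+ cells of Smad4 knockout mice, most ribosomal protein genes stayed close to their controls while Rpl34 was lower in both segments. The median member was at -0.13 in proximal and -0.12 in distal GS4T cells, with 14 and 21 members above 0 against 51.7 and 50.5% of genes. limma called 1 member in the proximal colon, where 15.6% of genes were called, and 3 in the distal colon, where 23.2% were, all lower. At an unadjusted p under 0.05, 1 was higher and 10 lower in the proximal colon (18.3 and 15.9% of genes), and 1 higher and 13 lower in the distal colon (19.8 and 18.3%). DESeq2 called 7 and 9 members, with no share of all genes given, so these counts do not set the members apart. Knockout libraries lay below both controls in 37 proximal members (31.4% of genes) and 36 distal members (33.1%).

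Rpl34, a large subunit protein whose gene lies at chr3:130726831-130730398 on the minus strand (GRCm38, GENCODE M21), was at 2765 and 3740 normalized counts in proximal GWTT cells and at 1177 and 1049 in GS4T cells (log2FC -1.53, SE 0.17, adjusted p = 0.00984). In the distal colon it was at 3285 and 3477 against 1104 and 999 (-1.69, SE 0.11, adjusted p = 0.00113). All 4 knockout libraries lay below the controls of their segment, and 6.93% of the windows of Rpl34 occur in another gene. In the distal colon the call held under each alternative run and without any 1 library, with log2FC from -1.76 to -1.61. In the proximal colon it was lost when either GS4T library was left out. Next to the same controls, GA3T cells had Rpl34 at 3499 and 2828 in the proximal colon (-0.10, adjusted p = 0.789). Distal GA3T cells had it at 4058 and 3276 (-0.08, adjusted p = 0.794), and in both segments these libraries overlapped their controls. The difference between the knockouts was not tested. In Muc2-mCherry+ cells of GS4M2 mice, which were not recombined, Rpl34 was low in replicate 2 (1712 proximal, 1865 distal). Replicate 1 was at 5330 and 5322. A difference between animals or mouse lines cannot be told apart from loss of Smad4 for this gene.

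The other 2 calls came from the distal colon. Rpl21, at chr5:146832890-146837032 on the plus strand, fell from 6320 and 6870 to 4975 and 4277 (-0.51, SE 0.13, adjusted p = 0.0358). Rps27rt, at chr9:114982366-114982739 on the minus strand, fell from 36.2 and 34.8 to 8.86 and 5.87 (-2.15, SE 0.56, adjusted p = 0.0429). Both were lower in each knockout library. The call of Rpl21 was lost without either control or without GS4T replicate 2, and that of Rps27rt when any 1 of the 4 libraries was left out. Rps27rt was also low in the proximal colon, at 13.4 and 45.1 against 9.22 and 6.98 (-1.51, adjusted p = 0.228), while Rps27 was at 3530 and 3349 against 3007 and 2868 (-0.23). Reads of Rps27rt per 100 reads of Rps27 were 1.01 to 1.22 in distal GWTT, 0.215 to 0.352 in GS4T and 0.306 to 0.361 in GA3T cells.

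**Figure D3:**
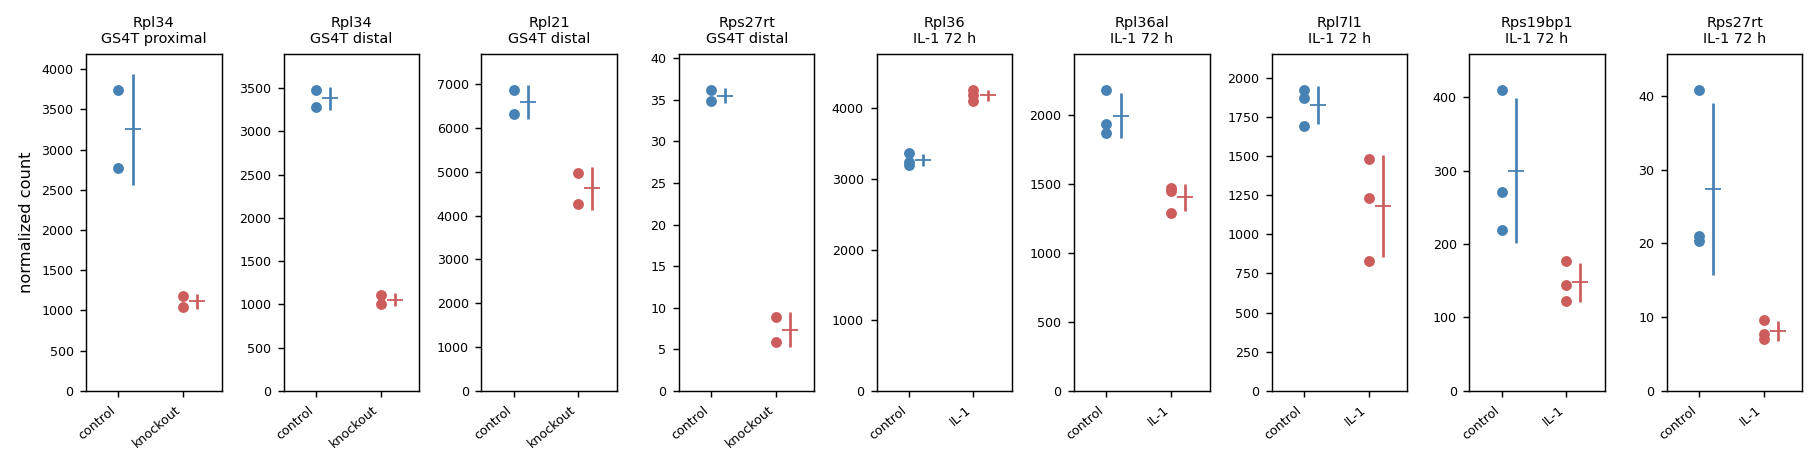
Normalized counts of the members past the threshold, with a dot per library (blue control, red knockout or IL-1) and the mean with SD beside them, on axes that start at 0. The groups do not overlap in any panel, Rpl36 alone is higher than its controls, and Rps27rt lies at far lower counts than the rest.

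Medians were lower for the small than for the large subunit, at -0.18 and -0.13 in the proximal and -0.17 and -0.10 in the distal colon. Rplp1 was at 11344 and 10496 against 8197 and 8959 (-0.35, adjusted p = 0.119) in the proximal colon. Rps6 was at 6908 and 6340 against 5276 and 5570 (-0.29, adjusted p = 0.136), with a distal value of -0.26. These were below both controls in each knockout library. Among the higher proximal members were Rps19bp1 (0.33) and Rpl7l1 (0.32). In the distal colon the highest were Rps27l, at 515 and 537 against 881 and 641 (0.51, adjusted p = 0.0925), and Rpl38 (0.33).

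The distal calls depended on the library, and the distal median ran from -0.21 to -0.10 without any 1 library. Markers of other cells moved with the knockout as well. B and plasma cell markers, all 5 listed, summed to 428 to 829 CPM against 1566 to 2789 in the proximal and to 112 to 449 against 3493 to 4827 in the distal colon. Macrophage markers, all 8 listed, were at 881 to 1570 against 183 to 295 and at 1109 to 2032 against 602 to 703, and epithelial markers at 1053 to 1279 against 11.1 to 419 and at 569 to 1117 against 47.8 to 145. The 8 stromal markers summed to 41862 to 56783 CPM in all of these libraries, but Lum, which encodes the proteoglycan lumican, fell in both segments (-1.78, adjusted p = 0.0283, and -2.04, adjusted p = 0.00176) and Dcn, which encodes decorin, in the distal colon (-1.06, adjusted p = 0.0249). The part of these cells in the values of the members was not tested.

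In Alk3 knockout stromal cells the proximal median was the lower of the 2, but single libraries of the segments overlapped. Their median deviations from the controls were -0.09 and -0.53 (proximal) and 0.09 and -0.23 (distal). The difference of the segment medians was not tested. The median member was at -0.30 in proximal GA3T cells, with 10 members above 0 against 51.3% of genes, and at -0.06 in distal cells, with 33 above 0 against 50.9%. limma called 0 members in either segment, against 0.358% of genes in the proximal colon and 0% in the distal. Without adjustment, at a p under 0.05, the proximal colon had 0 members higher and 16 lower (12.3 and 9.28% of genes) and the distal colon 2 higher and 1 lower (10.5 and 8.21%). DESeq2 called 4 members, all lower, and 1 member, higher, with no share of all genes given, and edgeR called 0 in both. Knockout libraries lay below both controls in 42 proximal members (27.5% of genes).

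The proximal members with the lowest values were Rps27rt (-1.34) and Rps4x, the X-linked small subunit protein. Rps4x was at 11623 and 12227 against 8823 and 7127 (-0.59, SE 0.16), and its adjusted p of 0.149 was the lowest of the members. It was below the controls in each knockout library. Rps4x also had the second lowest distal value, at 11406 and 12276 against 9821 and 8281 (-0.39), after Rps27rt, at 41.3 and 39.7 against 12.8 and 8.51 (-1.86, adjusted p = 0.183). The highest distal values were those of Rpl38, at 1239 and 1130 against 2202 and 1638 (0.68, adjusted p = 0.159), Rps29 (0.49) and Rps28 (0.45). In the proximal colon Rpl23a at 557 and 73.6 and Rps29 at 3557 and 935 placed the 2 knockout libraries on opposite sides of their controls.

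By the median over members the second GA3T library was the lower one in both segments, at -0.53 against -0.09 in the proximal and -0.23 against 0.09 in the distal colon. The distal median therefore turned sign with the library left out. In the proximal colon 1 member was called without GA3T replicate 1. Macrophage markers summed to 794 to 1436 CPM against 183 to 295 and B and plasma cell markers, 4 of 5 listed, to 894 to 937 against 1566 to 2789 in the proximal colon; their part in the values was not tested.

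After 12 h of cytokine no member of the organoids passed the test without a replicate block. The median member was at -0.16 with IL-1 and -0.12 with IL-17A, with 16 and 15 members above 0 against 50.6 and 49.2% of genes. limma called 0 members in both, against 0.0542 and 0.0385% of genes, and 0 had an unadjusted p under 0.05, against 3.00% of genes higher and 1.37% lower with IL-1 and 3.43 and 1.71% with IL-17A. edgeR and DESeq2 also called 0.

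The largest values at 12 h traced a split between library numbers. Rpl29, a large subunit protein that binds heparin, was at 9896, 9671 and 1520 in Control_12h replicates 1, 2 and 4 and at 9797, 1406 and 1422 in IL1_12h replicates 1, 3 and 4 (-0.96, adjusted p = 0.886). Rpl22l1 was at 495, 457 and 140 against 481, 128 and 146 (-0.60) and Rps2 at 42884, 42971 and 22369 against 41764, 20290 and 20807 (-0.41). Replicates 1 and 2 were high and replicates 3 and 4 low in both groups, and controls held 2 of the first kind and 1 of the second while cytokine groups held 1 and 2. Rps27 had the opposite order, at 2414, 2426 and 4947 against 2548, 4025 and 3763 (0.14). With a term for these sets of numbers the medians were -0.08 for IL-1 and -0.08 for IL-17A and 0 members were called. Same-numbered control and cytokine libraries deviated together at 12 h (correlations of 0.619 to 0.637), which the fit without a block ignored. With each number as a block 0 members were called for IL-1 but 5 for IL-17A, all lower. These were Rpl37a, Rpl39, Rps16, Rps28 and Rps29, with log2FC from -0.36 to -0.21. What sets the numbers apart is not stated in the labels and was not tested.

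**Figure D4:**
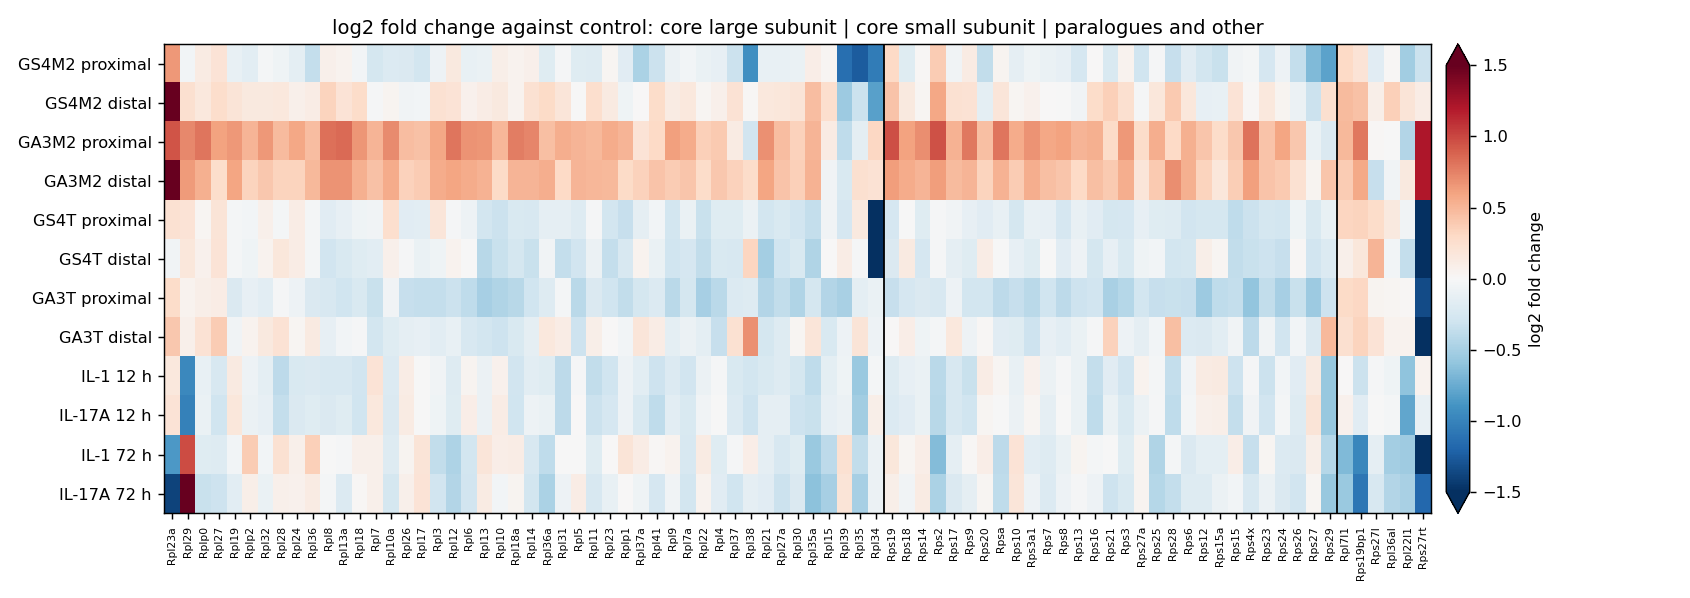
Fitted log2 fold change of 81 of the 83 members (horizontal) in the 12 comparisons (vertical), with colour capped at 1.5 in either direction and members grouped as core large subunit, core small subunit, and paralogues and other. GA3M2 rows are warm across both subunits, while the strongest colours elsewhere fall on a few columns such as Rpl34, Rpl23a, Rpl29 and Rps27rt.

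After 72 h of IL-1 the median core ribosomal protein gene was near its controls in normalized counts, and 4 of the 6 paralogues and other rows fell. As a share of reads the members were lower, at 2.99 to 4.10% with IL-1 and 2.90 to 3.87% with IL-17A against 4.57 to 4.81% in Control_72h, without overlap. The median member was at -0.04, with 32 of 83 above 0 against 50.0% of genes, at -0.01 for the large and -0.07 for the small subunit, and at -0.60 for the 6 paralogues and other rows, of which 0 were above 0. limma called 5 members, 1 higher and 4 lower, where it called 38.4% of all genes. At an unadjusted p under 0.05, 2 were higher and 10 lower (24.7 and 24.6% of genes). DESeq2 called 8 members and edgeR 5, all 5 lower, with no share of all genes given for these counts.

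Rpl36, a large subunit protein at chr17:56613416-56614243 on the plus strand, rose from 3360, 3237 and 3190 to 4104, 4179 and 4257 (log2FC 0.36, SE 0.12, adjusted p = 0.0445). This call was lost under edgeR, upper-quartile scaling and CPM, where the log2FC was 0.33, 0.26 and 0.06, and 81.1% of its windows occur in another gene. Rpl36al, at chr12:69182731-69184083 on the minus strand, fell from 2179, 1870 and 1932 to 1447, 1472 and 1291 (-0.51, SE 0.13, adjusted p = 0.0209). Rpl7l1, at chr17:46773907-46782672 on the minus strand, fell from 1868, 1921 and 1688 to 1477, 1233 and 830 (-0.67, SE 0.22, adjusted p = 0.0423). The groups did not overlap for any of these, and the parent Rpl7 overlapped its controls (0.07).

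Rps19bp1, at chr15:80260615-80264315 on the minus strand, fell from 410, 271 and 219 to 144, 176 and 123 (-0.98, SE 0.29, adjusted p = 0.0295). It is no ribosomal protein but a nucleolar partner of Rps19 and a regulator of the deacetylase Sirt1, and Rps19 itself was at 6595, 6065 and 5853 against 8083, 7103 and 5871 (0.18). Rps27rt fell from 40.8, 21.0 and 20.4 to 9.63, 6.98 and 7.68 (-1.58, SE 0.48, adjusted p = 0.0338), with Rps27 at 0.09. Of the P stalk, Rplp2 was highest, at 4030, 4823 and 4420 against 5534, 6310 and 5448 (0.38, adjusted p = 0.0605). Rpl29 again varied within groups, at 9168, 1337 and 1459 against 11676, 1596 and 7286 (0.97, adjusted p = 0.42).

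These calls rested on the libraries used. The number of members called was 8 without IL1_72h replicate 1, 3 without replicate 2 and 0 without replicate 3, and 2, 0 and 1 without Control_72h replicates 1, 2 and 4. It was 0 with the near-identical controls averaged and 25 with CPM in place of size factors, all 25 lower; CPM moved the median of all genes by -0.30, so relative to all genes the median member was at -0.04 there as well.

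After 72 h of IL-17A the median member was at -0.17, with 21 above 0 against 49.7% of genes, and 0 of 6 paralogues and other rows were above 0 (median -0.52). limma called 0 members, where it called 10.8% of genes. At an unadjusted p under 0.05, 1 member was higher and 9 lower (19.2 and 19.4% of genes). DESeq2 called 5, all lower, and edgeR 0, with no share of all genes given. The lowest adjusted p was that of Rpl15, at 7093, 7743 and 7303 against 5221, 5126 and 5373 (-0.49, adjusted p = 0.0544). Rps19bp1 was at 409, 269 and 218 against 115, 180 and 120 (-1.09, adjusted p = 0.0632), Rpl36al at 2175, 1859 and 1928 against 1586, 1462 and 1357 (-0.44, adjusted p = 0.0775) and Rpl23a at 433, 254 and 292 against 128, 64.9 and 214 (-1.38, adjusted p = 0.0774). In all 4 the groups were apart. Rpl29 was at 9149, 1329 and 1456 against 10501, 8625 and 7748 (1.77, adjusted p = 0.114). Without IL17A_72h replicate 2, 4 members were called, all lower, and without Control_72h replicate 1, 1 was called, higher. Both cytokine comparisons at 72 h share their controls.

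Many of the factors that build ribosomes were lower in the 72 h cytokine libraries than in Control_72h. Since Control_72h replicates 1 and 4 repeat reads labelled 12 h, time in culture cannot be told apart from the cytokine here. Of 88 ribosome biogenesis genes, 77 fell and 1 rose with IL-1 (median log2FC -1.35), where 18.9% of genes were called lower, and 18 fell with IL-17A (median -1.15), where 4.18% were. Dkc1, the pseudouridine synthase dyskerin, fell from a mean of 1255 to 208 normalized counts with IL-1 (-2.69, SE 0.32, adjusted p = 0.00292) and from 1251 to 320 with IL-17A (-2.35, SE 0.57, adjusted p = 0.048). Nop56, a core protein of snoRNPs, fell from 2466 to 533 with IL-1 (-2.40, adjusted p = 0.00567). Of 15 tested RNA polymerase I genes 8 fell with IL-1 and 2 with IL-17A, with Cd3eap at -2.31 and -2.25. Of 78 mitochondrial ribosomal protein genes, which serve translation inside mitochondria, 19 fell and 3 rose with IL-1 (median -0.41) and 7 fell with IL-17A (-0.40), with Mrps22 at -1.54 and Mrps2 at -1.20 and -1.31.

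**Figure D5:**
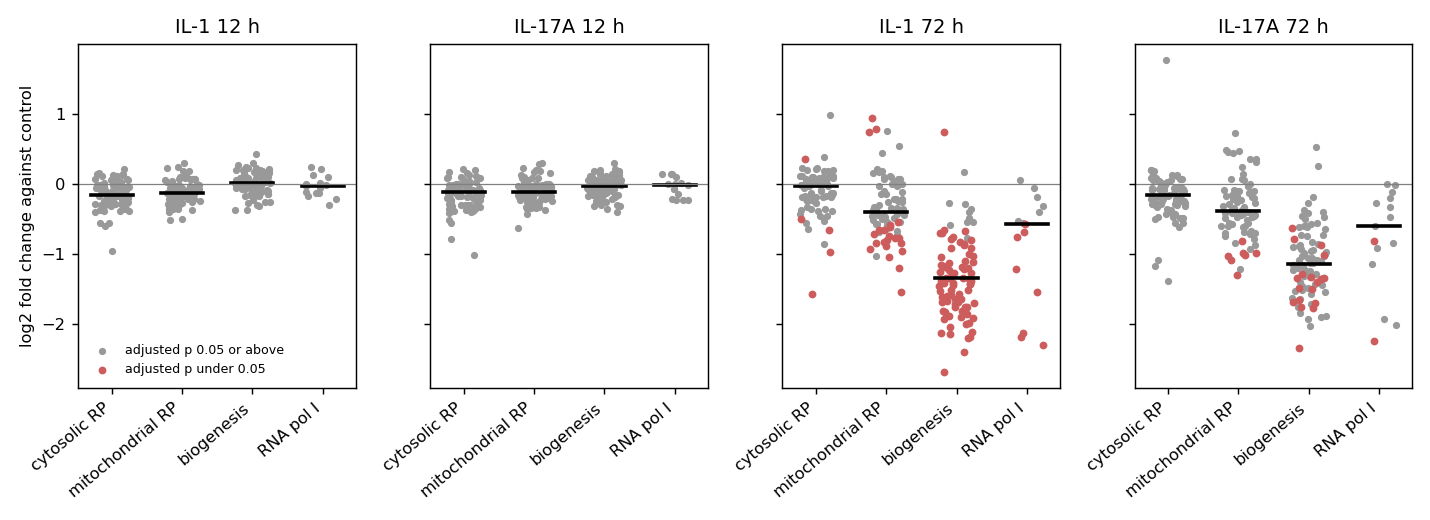
log2 fold change of each gene (dot; red where limma called it) for cytosolic ribosomal proteins, mitochondrial ribosomal proteins, ribosome biogenesis factors and RNA polymerase I in the 4 organoid comparisons, with a black bar at the median. At 72 h of IL-1 the biogenesis genes centre at -1.35 while the cytosolic ribosomal proteins centre at -0.04. At 12 h the biogenesis genes centre near 0. The cytosolic ribosomal proteins centre below 0 at 12 h of both cytokines, lower than at 72 h of IL-1.

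Other genes of translation were mixed, and several counts lay near the shares of all genes called, which were 19.6% higher and 18.9% lower with IL-1 and 6.59% higher and 4.18% lower with IL-17A. Initiation factors had 13 of 35 lower and 3 higher with IL-1 (median -0.43), and 4 lower with IL-17A, with Eif2b1, a subunit of the exchange factor for Eif2, at -1.60 and -1.55. Elongation factors had 3 of 12 lower and 1 higher with IL-1 and 2 lower with IL-17A, with Eif5a at -0.88 and -0.92. Of the snoRNA host genes 5 of 12 fell and 1 rose with IL-1, and 3 fell and 1 rose with IL-17A. Fau, which encodes a small subunit protein fused to a ubiquitin-like domain and is outside the name rule, rose with IL-1 from a mean of 5799 to 9372 (0.71, SE 0.20, adjusted p = 0.0247), while Rack1 was not called. Of 14 p53 targets 4 rose and 1 fell with IL-1 and 3 rose with IL-17A, with Gdf15 at 2.93 and 3.36. In the mTORC1 list 2 of 18 rose and 4 fell with IL-1, and 1 rose and 2 fell with IL-17A. Ddit4, an inhibitor of the pathway, rose with both (1.27 and 1.18), Rps6kb1, the S6 kinase, fell with IL-1 (-0.81), and Akt1s1, another inhibitor, fell with IL-17A (-0.74). At 12 h none of these lists held a called gene and the biogenesis medians were 0.01 and -0.04.

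The biogenesis count with IL-1 was 58 to 76 lower without any 1 library, but with IL-17A it was 75 without IL17A_72h replicate 2 and 0 or 1 without any other library. Organoid cell markers also moved at 72 h. The 5 colonocyte markers summed to 5275 to 11342 CPM with IL-1 against 1926 to 4056 in controls, the 6 epithelial markers to 9576 to 10911 against 6566 to 7662, and the 8 goblet markers to 2449 to 10813 against 7134 to 7882. The part of cell composition in these values was not tested.

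The companion lists of the goblet and stromal comparisons did not all take the direction of the ribosomal proteins. In distal GA3M2 cells 87 of 88 biogenesis genes (median 0.49), 12 of 12 elongation factors (0.39) and 33 of 35 initiation factors (0.27) were above 0, against 53 of 78 mitochondrial ribosomal proteins (0.08), and none was called. In distal GS4M2 cells 85 biogenesis genes (0.40) and 69 mitochondrial ribosomal proteins (0.22) were above 0, and in proximal cells 72 (0.17) and 14 (-0.14), where 22 of 83 ribosomal proteins were. In GS4T cells 2 of 88 biogenesis genes were called higher and 3 lower in the proximal colon, where 8.32% of genes were called higher and 7.24% lower. In the distal colon 9 were called higher and 1 lower, against 12.1 and 11.1% of genes, while the 3 called ribosomal proteins were all lower. All 4 counts lay below those shares. Rrs1, an assembly factor of the large subunit, rose in both segments (1.29 and 1.32, adjusted p = 0.0155 and 0.00745). Nop58, from the same biogenesis list, fell in the proximal colon (-1.49, adjusted p = 0.0118). Eif6, which keeps free large subunits apart from small ones, rose in both segments (0.99 and 0.81, adjusted p = 0.00812 and 0.0173). Myc fell in the proximal colon (-1.55, adjusted p = 0.0364).

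Whether an effect differed between segments or times was tested in limma across both tables. In none of the 6 tests was a member called: GS4M2 segment (0% of genes called), GA3M2 segment (0%), GS4T segment (0.195%), GA3T segment (0%), IL-1 time (25.7%) and IL-17A time (0.0393%). edgeR likewise called 0 in each. Same-numbered proximal and distal libraries of a group deviated together (correlations across genes of 0.209 to 0.607), and with the number within each genotype as a block over both segments 0 members were called in each of the 4 segment tests. The numbers of members at an unadjusted p under 0.05 were 8, 0, 0, 0, 6 and 4, against 8.71, 1.32, 10.1, 6.88, 39.8 and 28.4% of genes. For GS4M2 the proximal effect was below the distal one in 83 of 83 members (49.8% of genes), with a median difference of -0.23 and the lowest p at Rpl38 (-0.93, adjusted p = 0.561). For GA3T it was below in 80 (48.9% of genes), with a median of -0.22.

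Both time tests entered the 2 repeated control libraries at 12 h and at 72 h as if separate. Their p-values and shares of genes called therefore rest partly on repeated reads. The time test came closest for IL-1. The 72 h effect less the 12 h effect was 0.45 for Rplp2 (adjusted p = 0.0545), 0.57 for Rpl36 (adjusted p = 0.058) and -0.67 for Rpl7l1 (adjusted p = 0.0697). For IL-17A the lowest value was at Rpl23a (-1.59, adjusted p = 0.107). With the repeated control libraries left out, 0 members were called for either cytokine. Without 1 library the calls ranged from 0 to 4 for IL-1, the most without IL1_72h replicate 1, and from 0 to 2 for IL-17A, the most without IL17A_72h replicate 2.

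Across the 12 comparisons some members varied far more than others. The SD of the log2FC was 1.15 for Rps27rt, with values from -2.15 to 1.21, 0.905 for Rpl23a, 0.764 for Rpl29, 0.685 for Rpl34, 0.585 for Rps19bp1 and 0.505 for Rps2. The share of sequence windows found in other genes was 91.1% for Rps27rt, 85.7% for Rpl23a, 47.9% for Rpl29 and 71.3% for Rps2, so their counts are uncertain, but 6.93% for Rpl34 and 0% for Rps19bp1. The lowest SDs were those of Rps27a (0.17), Rps15a (0.207), Rplp2 (0.22) and Rps13 (0.225). These SDs include the shift that members had in common. Relative to the member median of each comparison, the SD was 0.159, 0.194, 0.142 and 0.105 for these members. It was lower for Rpl27a (0.0754) and Rps7 (0.0803). Comparisons that share controls are not independent of each other.

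The balance of paralogue and parent shifted within cell types as well. Rps27l reads per 100 Rps27 reads were 15.6 to 17.3 in distal GWTT cells, 23.5 to 35.0 in GS4T cells and 20.6 to 23.6 in GA3T cells. In distal Muc2-mCherry+ cells they were 32.1 to 40.9 in controls, 46.1 to 49.7 in GS4M2 and 24.3 to 31.7 in GA3M2. Proximal values were 23.0 to 23.1 in controls, 31.6 to 32.9 in GS4M2 and 24.4 to 25.6 in GA3M2. GA3M2 thus lay below its controls in the distal colon and above them in the proximal colon. Rpl7l1 per 100 Rpl7 reads went from 9.05 to 14.1 in Control_72h to 5.11 to 7.98 with IL-1 and 5.88 to 8.0 with IL-17A, without overlap. Rpl36al per 100 Rpl36a reads was 84.9 to 85.9 in distal GWTM2 and 49.9 to 64.1 in GA3M2 cells. These ratios are given as values, with no test.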

How the data were processed

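RNA-seq of Muc2-mCherry+ cells, Gli1-tdTomato+ cells and colonic organoids was used, 42 samples in 12 tables. The deposited values are a normalized signal: per the labels and methods, the authors kept reads that STAR (version 2.5.3) mapped uniquely to mm10 and divided gene counts by DESeq2 (version 1.28.1) size factors within each table. The counting program, annotation and strand setting are not given in the sources used here, and unique mapping can lower genes with copies. Whole reads were recovered by division (100% of values within 0.01 of a whole number), for depth, CPM, edgeR (4.0.16) and DESeq2 (1.42.0). In both Smad4 tables of Muc2-mCherry+ cells, 4 rows without a gene name, 20.9 to 28.2% of the values, were left out.

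Groups came from the labels. The main test was limma (3.58.1, R 4.3.3), two-sided, with an empirical Bayes trend on log2(value + 1) of all rows with a mean of at least 10 in a table, Benjamini-Hochberg adjusted over all of them and called at an adjusted p under 0.05. The fold change on this scale understates changes of low genes. Differences between segments or times were interaction terms over both tables. Scripts were tested on simulated data. The members and gene lists were chosen with earlier results of these data known, so no p was adjusted over the list and no test was made of it as a set. Named members were the P stalk with Rpsa, the paralogues, Rpl5, Rpl11, Rps6 and Rps19, the 3 largest values in each direction per comparison, every called member where at most 6 were called, and the highest and lowest core members per transcript length. Others were named after their values were seen. A few genes that these rules pick are not reported here. From the companion lists at most 2 called genes per comparison were named.

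Alternatives were edgeR, DESeq2, CPM and upper-quartile scaling, pseudocounts of 0.1 and 10, no minimum mean and a minimum of 50, a replicate block, each library left out in turn, and near-identical libraries averaged. Counts called in these runs are given without the share of all genes called. They show how calls depend on the setting and are no result about the members by themselves. Sequences came from RefSeq (GRCm38.p6), gene positions and shared windows from GENCODE M21. The organoid libraries that repeat another sample's reads were kept as deposited in their own table. Figures were drawn with matplotlib (3.10.9), and tables with Python 3.11.15, pandas 2.3.3 and numpy 2.4.6. The fold changes and p-values in the authors' own tables of comparisons were not used.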

Additional observations from a re-analysis of the deposited data

Results flagged for a closer look

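In Muc2-mCherry+ cells of GS4M2 mice the libraries of the 2 segments moved in opposite directions. The median over the 83 members, as the deviation from the mean of the controls on the log2 scale, was -0.09 and -0.13 in the 2 proximal libraries and 0.14 and 0.16 in the 2 distal libraries. The difference of these medians was not tested. Member by member, the interaction of knockout and segment called 0 of 83 in limma and in edgeR, with 8 members at an unadjusted p under 0.05. The proximal values turn sign with the other headings of that table. No group of this study holds 4 or more libraries, so no single library could be tested as standing apart.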

How the results depend on the processing

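With 2 or 3 libraries per group, counts of called members depended on the setting more than medians did. Of the alternatives run, 223 counts of members called stayed within 1.5 times the main count and 57 moved, 170 medians stayed within the spread of libraries and 12 moved, and of the values of named members 1065 were the same, 55 became called, 48 lost the call and 24 changed sign. Counting members at an unadjusted p under 0.05 gave 14, 5, 12, 45, 11, 14, 16, 3, 12 and 10 for GS4M2 proximal and distal, GA3M2 proximal and distal, GS4T proximal and distal, GA3T proximal and distal, IL-1 72 h and IL-17A 72 h, and 8, 6 and 4 for the GS4M2 segment, IL-1 time and IL-17A time interactions. DESeq2 gave 6, 3, 19, 7, 9, 4, 1, 8 and 5 for GS4M2 proximal, GA3M2 proximal and distal, GS4T proximal and distal, GA3T proximal and distal, IL-1 72 h and IL-17A 72 h. A pseudocount of 10 gave 2 and a minimum mean of 50 gave 2 for GS4T proximal. At 72 h, CPM gave 25 members for IL-1 and 1 for IL-17A, upper-quartile scaling 2 for IL-17A, and averaging near-identical libraries 0 for IL-1. The medians moved to 0.22 with CPM for GS4M2 distal, to -0.34 with CPM for IL-1 72 h, and to -0.27 and -0.45 with upper-quartile scaling and CPM for IL-17A 72 h, where CPM moved the median of all genes by -0.30 and -0.29.

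Over the whole series the replicate numbers did not pair the samples by the rule used. Correlations of the deviations of same-numbered libraries ran from -0.00221 and -0.0573 in GS4M2 to 0.15 and 0.302 in GA3M2. In organoids they were -0.186 to 0.2 at 72 h but 0.619 to 0.637 at 12 h. Same-numbered libraries thus went together at 12 h, which the main fit ignored. A fit with the replicate block called 5 members in GS4M2 proximal, 1 in GA3M2 proximal, 5 in IL-17A 12 h and 0 in IL-1 72 h, and moved no other count by more than 1.5 times.

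Leaving out 1 library at a time, members called ranged from 0 to 3 and 0 to 4 in GS4M2 proximal and distal, 0 to 38 and 0 to 7 in GA3M2, 0 to 1 and 1 to 10 in GS4T, 0 to 1 in GA3T proximal, 0 to 8 and 0 to 4 at 72 h of IL-1 and IL-17A, and 0 to 4 and 0 to 2 in the time interactions. Medians ranged from -0.13 to -0.0387 and 0.12 to 0.17 in GS4M2, 0.20 to 0.86 and 0.39 to 0.49 in GA3M2, -0.19 to -0.10 and -0.21 to -0.10 in GS4T, -0.53 to -0.0855 and -0.23 to 0.0892 in GA3T, -0.25 to -0.10 and -0.21 to -0.08 at 12 h, and -0.19 to 0.0054 and -0.21 to -0.12 at 72 h.

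Single members whose sign changed were those near 0 or with a split between libraries. Rpl23a in GS4M2 proximal was at -0.67 in edgeR, -0.67 in edgeR scaled without the members, -0.65 in DESeq2 and from -1.59 to 2.89 without 1 library. Ranges without 1 library were -1.21 to 0.12 and -1.10 to 0.46 for Rpl39 and Rpl35 in GS4M2 distal, -0.61 to 0.0231 for Rpl38 in GA3M2 proximal, -0.90 to 0.45 for Rpl39 and -0.25 to 0.15 for Rpl15 in GA3M2 distal, -0.0010 to 0.65 for Rpl38 in GS4T distal, -1.17 to 1.73 for Rpl23a in GA3T proximal, -0.0005 to 0.91 for Rps28 in GA3T distal, -0.0724 to 0.31 and -0.0199 to 0.36 for Rpl23a at 12 h of IL-1 and IL-17A, and -0.0359 to 0.48 for Rps27 at 12 h of IL-1. Rps27 at 12 h of IL-1 was at -0.16 with the block and -0.14 with a term for the number sets, and at 12 h of IL-17A at -0.13 with the block and -0.10 with the term. Rpl22l1 at 12 h of IL-1 was at 0.0128 with the block. With CPM, Rpl17 and Rpl39 at 72 h of IL-17A were at -0.0858 and -0.0924. The cause was not tested for any of these. The term for number sets, the block over both segments, the time test without repeated controls and edgeR scaling without the members were chosen after seeing the data.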
